A study of Saccharomyces cerevisiae with 6 samples.

Results

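The 33 genes described here are RPN4, which encodes the transcriptional activator of the proteasome genes, and 32 genes for subunits of the proteasome itself. They were chosen by name and make up 33 of the 6002 protein-coding genes on the nuclear chromosomes of Saccharomyces cerevisiae in assembly R64. All 33 names were found in the gene table. For each gene, peaks were sought whose summit, the base of highest signal, lay within 1000 bp upstream of the annotated start. The subunit genes fall into 10 of the base, 8 of the lid and 14 of the core, and the other 5969 protein-coding genes stand beside them.

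The proteasome is the protease that degrades ubiquitin-tagged proteins. Its core is a barrel of α and β rings, with the cutting sites in the β rings, and a regulatory particle at its ends recognises and unfolds the substrates. The base of that particle holds a ring of ATPases (the RPT genes) and ubiquitin receptors, and the lid holds the subunit that removes ubiquitin. In budding yeast Rpn4 binds a short element upstream of most proteasome genes and activates them together. Rpn4 is itself degraded by the proteasome, which closes a feedback loop. The activators Pdr1 and Pdr3 of the pleiotropic drug resistance genes have been reported to act on the RPN4 promoter, as have Yap1, the activator of the oxidative stress response, and Hsf1, the heat-shock factor.

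The study mapped Pdr1 and Pdr3 by CUT&RUN, in which an antibody brings micrococcal nuclease to a bound protein and the released DNA is sequenced. The 6 libraries were 2 anti-c-Myc libraries of strain YRP10 for Pdr1, 1 anti-c-Myc library of strain Pdr3_3xmyc for Pdr3, and 2 and 1 control libraries with rabbit IgG of the same strains. All were grown in YPD medium at 30 °C, and the labels name no drug. The labels name no tag for YRP10 and do not say whether the Pdr1 replicates came from separate cultures. A list of peaks was used for each of the 3 anti-c-Myc libraries. The IgG libraries were not analysed here, so no control value stands beside a peak.

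The Pdr1 lists held 792 peaks in replicate 1 and 485 in replicate 2, and the Pdr3 list held 7. Median fold enrichment, as written by the authors' peak caller, was 4.86, 4.85 and 5.48 in the 3 lists. What the fold is relative to is not stated. Each list was therefore read on its own scale, and ranks are given with the length of the list. Without read counts in the files the depth is unknown, and absence of a peak cannot be told apart from signal under the threshold of the peak caller.

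RPN4 had a Pdr1 peak upstream in both replicates, and it was the only gene whose upstream window held that summit. RPN4 (YDL020C) lies on the reverse strand of chromosome IV from 415113 to 416708. The replicate 1 peak ran from 416859 to 417338 with its summit at base 417110. The replicate 2 peak ran from 416927 to 417209 with its summit at base 417095. The summits were thus 402 and 387 bp upstream of the annotated start and 15 bp from each other. The replicate 2 peak, 283 bp wide, lay wholly within the replicate 1 peak, 480 bp wide.

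Both RPN4 peaks stood high in their lists. Fold enrichment was 11.8 in replicate 1 and 6.71 in replicate 2, which is 2.42 times the median of the replicate 1 list and 1.38 times that of the replicate 2 list. By fold the peak ranked 34 of 792 in replicate 1 and 67 of 485 in replicate 2, the top 4.29% and 13.8%. By −log10 q, the peak caller's measure of confidence, it ranked 27 and 18, the top 3.41% and 3.71%, with values of 105 and 52.3. The replicates thus placed the peak alike by −log10 q and further apart by fold. Among genes with a summit upstream, ordered by their strongest peak, RPN4 was in place 49 of 931 in replicate 1 and 88 of 613 in replicate 2.

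The space in which the RPN4 peak lies is 954 bp long and ends at the 3′ end of OSH2, a gene for an oxysterol-binding protein that is read in the same direction. No other annotated gene starts in it. Among the 409 Pdr1 regions in which peaks of both replicates overlapped by at least 1 bp, that of RPN4 was in position 28 by mean rank of fold and in position 17 by mean rank of −log10 q. In the order by fold, a region upstream of SKS1 and RMI1 came directly above that of RPN4, with fold enrichments of 9.89 and 7.22. Directly below in the same order came a region upstream of RTS3 and YGR161W-C, with 13.6 and 6.39. By −log10 q these neighbours were in positions 39 and 52, both below RPN4.

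**Figure D1:**
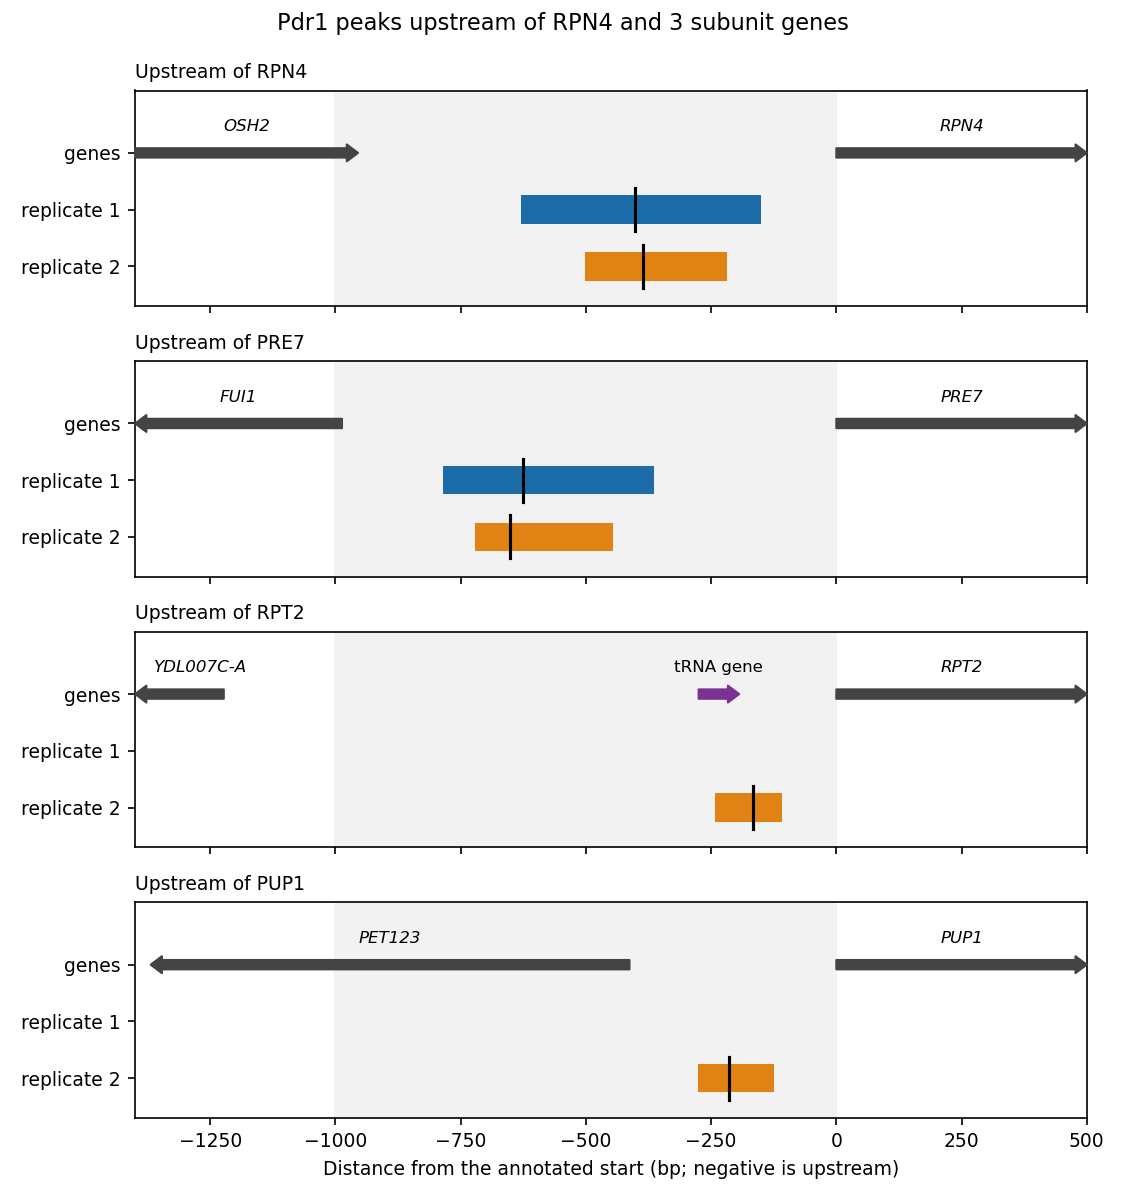
Peaks of the Pdr1 lists (bars, replicate 1 blue and replicate 2 orange) and their summits (black lines) by distance in bp from the annotated start of RPN4, PRE7, RPT2 and PUP1. Arrows are annotated genes and the grey area is the 1000 bp window. The RPN4 and PRE7 windows hold a peak of each replicate, and the RPT2 and PUP1 windows hold a replicate 2 peak only.

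No Pdr3 peak was listed at RPN4 or at any of the 32 subunit genes. Of the other protein-coding genes, 10 of 5969 (0.168%) had a Pdr3 summit upstream. The nearest Pdr3 summit on the upstream side of RPN4 was 48.6 kb away. Each of the 7 Pdr3 peaks lay on a Pdr1 region common to both replicates, of which 6 ranked above that of RPN4 and 1 below it. Of the 27 shared regions above RPN4, 21 also had no listed Pdr3 peak. In replicate 1 the Pdr1 fold enrichment at 3 of the 7 regions with a Pdr3 peak was lower than at RPN4, and in replicate 2 at 0 of them. By fold, RPN4 was therefore within the range of Pdr1 signal seen at regions with a Pdr3 peak in replicate 1, and below that range, which began at 6.99, in replicate 2. By −log10 q it was within the range in both replicates: 1 of the 7 regions had a lower value than RPN4 in replicate 1, and 2 of the 7 in replicate 2.

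The subunit genes were then counted. In replicate 1 a summit lay upstream of 1 of the 32 subunit genes (3.13%), against 15.6% of the other protein-coding genes. In replicate 2 it was 3 of 32 (9.38%), against 10.2%. In both replicates it was 1 of 32 (3.13%), against 8.96%. The share of subunit genes was thus below that of the other genes in replicate 1 and near it in replicate 2, and 1 gene more or fewer moves it by 3.13 percentage points. The replicate 1 list is the longer. With only its 485 peaks of highest fold kept, the share of other genes was 9.92% in replicate 1 and 6.06% in both replicates. The subunit genes stayed at 1 of 32 (3.13%) in each case. No test of these shares was made, and the counts are given as a description.

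PRE7, which encodes a subunit of the β ring, was the subunit gene with a summit in both replicates. PRE7 (YBL041W) lies on the forward strand of chromosome II from 141247 to 141972. Its peaks ran from 140461 to 140882 in replicate 1 and from 140525 to 140801 in replicate 2, with summits at bases 140622 and 140595, 27 bp apart. Fold enrichment was 8.20 (rank 99 of 792) and 6.46 (rank 75 of 485), and −log10 q was 45.4 and 23.1. Among the shared regions it was in position 47 by fold and 77 by −log10 q, below RPN4 in both orders.

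The PRE7 summits lay in a space of 986 bp that PRE7 shares with the divergent gene FUI1, which encodes a uridine permease. They were 625 and 652 bp from the start of PRE7, and 362 and 335 bp from the start of FUI1. The summit of each replicate was therefore nearer to FUI1. A window of 500 bp left out PRE7 in both replicates, and RPN4 was then the only member with a summit in both.

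RPT2 and PUP1 had a summit in replicate 2 only. RPT2 (YDL007W; chromosome IV, 438047 to 439360) encodes an ATPase of the base. Its peak, from 437804 to 437938, was 5.01-fold enriched and ranked 224 of 485, with its summit 167 bp upstream of the start. This peak overlapped 50 bp of the tRNA gene YNCD0006W (437772 to 437853), and its summit was 27 bp beyond the end of that gene. In replicate 2, 12 of the 485 peaks (2.47%) overlapped a tRNA gene, and in replicate 1, 8 of 792 (1.01%). What part the tRNA gene has in the RPT2 peak was not tested.

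PUP1 (YOR157C; chromosome XV, 630966 to 631751) encodes a catalytic subunit of the β ring. Its peak, from 631875 to 632028, was 5.54-fold enriched and ranked 155 by fold and 293 by −log10 q. The summit was 214 bp from the start of PUP1 and 199 bp from that of the divergent gene PET123, which encodes a protein of the mitochondrial ribosome. The distances to both starts were thus nearly equal. Replicate 1 listed no peak in either of these windows: its nearest summit on the upstream side was 16195 bp from the start of RPT2 and 7123 bp from that of PUP1.

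**Figure D2:**
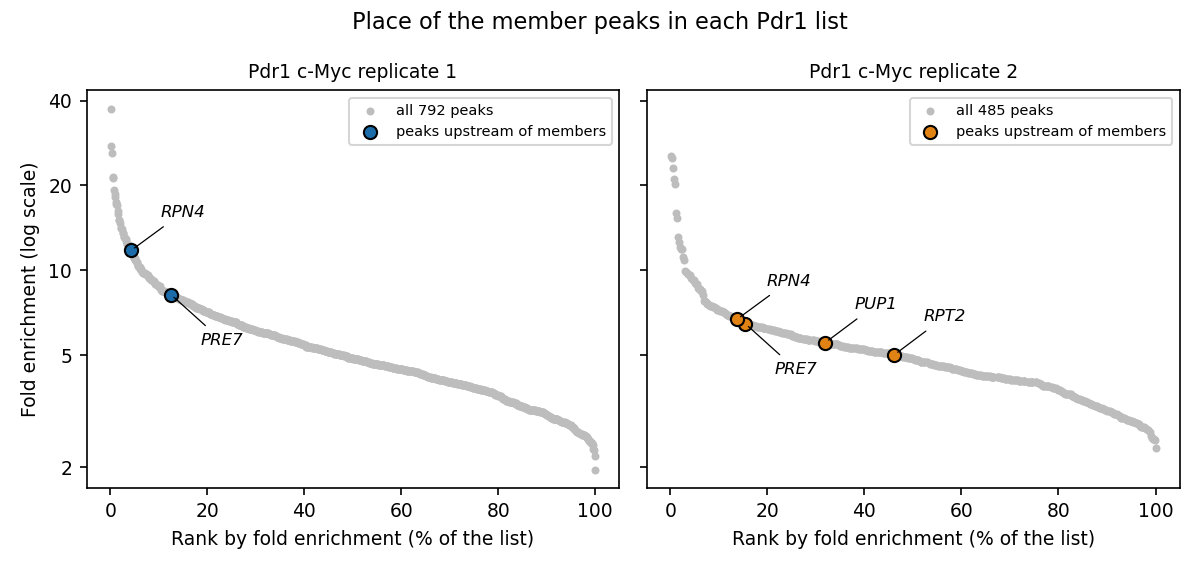
Fold enrichment (log scale) of every peak against its rank as a percentage of the list, for replicate 1 (left) and replicate 2 (right) of Pdr1. Coloured points are peaks upstream of RPN4 and of subunit genes. RPN4 stands at 4.29% and 13.8% of the lists, PRE7 at 12.5% and 15.5%, and PUP1 and RPT2, in replicate 2 only, at 32.0% and 46.2%.

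By part of the complex, the base had 0 of 10 genes with a summit in replicate 1 and 1 of 10, RPT2, in replicate 2. The lid had 0 of 8 in each replicate. The core had 1 of 14, PRE7, in replicate 1 and 2 of 14, PRE7 and PUP1, in replicate 2. The core genes with a summit were β ring genes (1 and 2 of 7), and the α ring had 0 of 7 in each replicate. Of the other protein-coding genes, 15.6% had a summit in replicate 1 and 10.2% in replicate 2. With so few genes in each part, these counts do not separate base, lid and core, or the α and β rings, from each other or from the other genes.

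The 29 subunit genes with no summit in either list were the following. Of the base they were RPT1, RPT3, RPT4, RPT5 and RPT6, which encode the other ATPases, RPN1 and RPN2, which encode the large scaffold subunits, and RPN10 and RPN13, which encode ubiquitin receptors. Of the lid they were RPN3, RPN5, RPN6, RPN7, RPN8, RPN9 and RPN12, and RPN11, which encodes the enzyme that removes ubiquitin. Of the α ring they were SCL1, PRE5, PRE6, PRE8, PRE9, PRE10 and PUP2. Of the β ring they were PRE1, PRE4 and PUP3, and PRE2 and PRE3, which encode the other catalytic subunits.

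For these 29 genes the nearest summit on the upstream side was a median of 15.0 kb away in replicate 1, with a range of 1.14 to 56.1 kb. In replicate 2 the median was 21.8 kb and the range 1.25 to 97.3 kb, over 28 genes, since no peak lay on the upstream side of PRE4 on its chromosome. The summit was over 10 kb away for 17 of them in replicate 1 and for 20 in replicate 2. No peak of either list overlapped any of the 33 annotated genes themselves, and few of the other genes were overlapped by a peak (3.55% and 1.76%). With shares that low, an absence among 33 genes does not set the members apart. The distance to the nearest summit on either side had a median of 5793 bp over the subunit genes and 6070 bp over the other genes in replicate 1, and of 13462 and 9558 bp in replicate 2.

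The members just inside and just outside the 1000 bp window were PRE7 and PUP2. The summits nearest to PUP2, an α ring gene, were 1136 bp upstream in replicate 1 and 1251 bp in replicate 2. They had fold enrichments of 10.7 (rank 43) and 9.23 (rank 24). The peaks lay in the space of 1786 bp between PUP2 and ENO1, which encodes enolase, with summits 651 and 536 bp from the start of ENO1. When any base of a peak in the window was counted in place of the summit, PUP2 joined PRE7 and RPN4 in both replicates. PRE6, another α ring gene, had summits 1354 and 1329 bp upstream, and these lay in the windows of RPS15 and RPP2A, genes for ribosomal proteins.

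**Figure D3:**
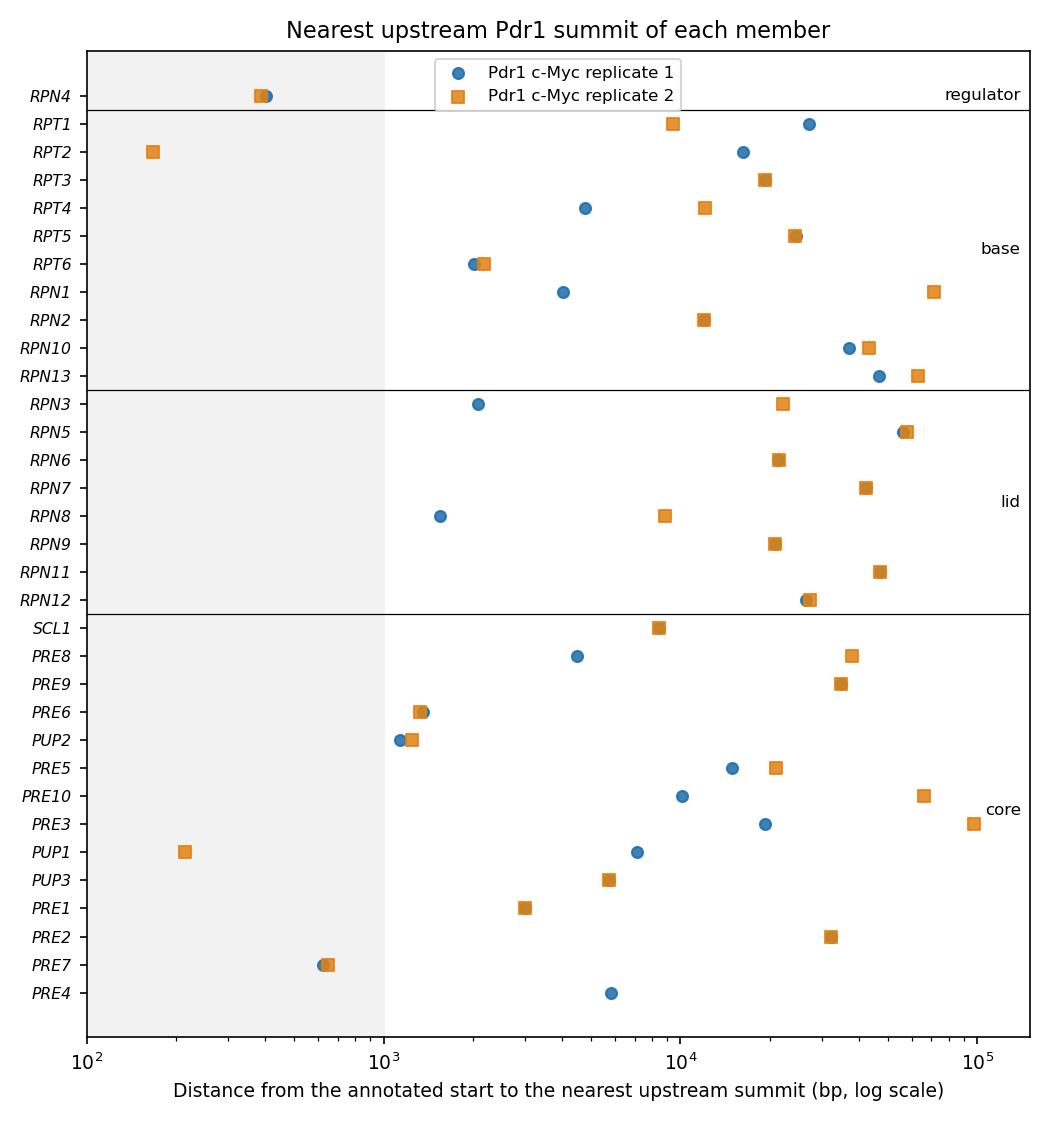
Distance in bp (log scale) from the annotated start of each of the 33 genes to the nearest Pdr1 summit on its upstream side, in replicate 1 (circles) and replicate 2 (squares). The grey area is the 1000 bp window, which holds points of RPN4, PRE7, RPT2 and PUP1. PRE4 has no square because replicate 2 lists no peak on its upstream side.

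The space upstream, up to the next protein-coding gene, had a median of 382 bp upstream of the 32 subunit genes (quartiles 297 and 608 bp), and of 449 bp upstream of 5960 other genes with a neighbour on that side (quartiles 280 and 731 bp). The upstream neighbour pointed away from 21 of the 32 subunit genes (65.6%), against 52.0% of the other genes. RPN4, with 954 bp and a neighbour in the same direction, was unlike most subunit genes in both respects. The share of the other genes with a summit was higher where this space was longer. Where the space was under 300 bp, 0 of 9 subunit genes had a summit in each replicate, against 5.10% of the other genes in replicate 1 and 3.07% in replicate 2. From 300 bp to under 600 bp it was 0 and 1 of 14, against 11.0% and 5.59%. From 600 bp upwards it was 1 and 2 of 9, against 28.9% and 20.9%. The 2 in replicate 2 include RPT2, whose space of 1222 bp counts protein-coding neighbours only. The tRNA gene that the RPT2 peak overlaps lies within that space. What part the length of this space has in the counts of subunit genes with a summit was not tested.

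Other genes of the pathway were counted beside the same 15.6% and 10.2% of other genes. Of 15 genes for assembly factors and proteasome-associated proteins, 1 had a summit in replicate 1 (6.67%) and 2 in replicate 2 (13.3%). POC4, which encodes a chaperone of core assembly, had one in both, with fold enrichments of 5.22 (rank 346 of 792) and 4.24 (rank 311 of 485). The POC4 peak also lay upstream of KES1, a gene for an oxysterol-binding protein, and was nearer to the start of POC4 (254 and 213 bp, against 527 and 568 bp). SEM1, which encodes a small lid subunit outside the 33 genes, had a 2.92-fold peak in replicate 2 at rank 459.

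Of 15 genes that supply ubiquitin or deliver substrates, 3 had a summit in replicate 1 (20%) and 0 in replicate 2. UBC4 and RAD6, which encode ubiquitin-conjugating enzymes, had fold enrichments of 6.95 (rank 167) and 6.16 (rank 233). UBI4, the polyubiquitin gene, had 4.04 (rank 546). Replicate 2 listed no peak at any of these 3 genes.

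**Figure D4:**
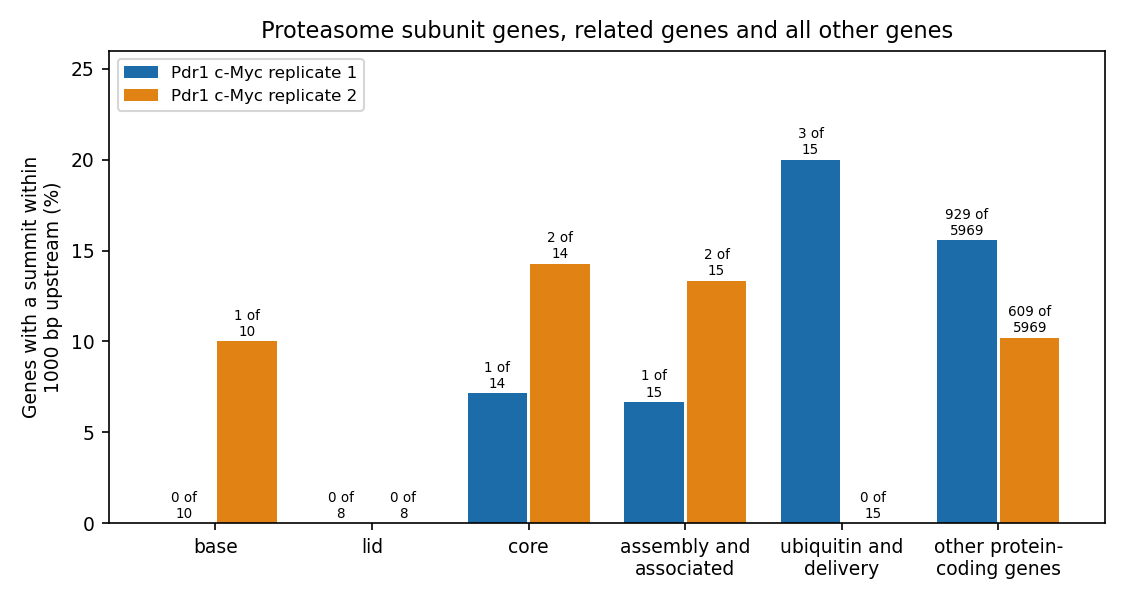
Share of genes (%) with a Pdr1 summit within 1000 bp upstream in replicate 1 (blue) and replicate 2 (orange), with the number of genes over each bar. Base, lid and core stand at 0 to 14.3%, the 2 groups of related genes at 0 to 20%, and the other protein-coding genes at 15.6% and 10.2%. The lid subunit gene SEM1 is counted among the assembly and associated factors, not in the lid bars.

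The genes of the 4 activators reported to act on the RPN4 promoter were looked at in the same way. PDR3 had a summit in all 3 lists, with fold enrichments of 19.3 (rank 6) and 6.99 (rank 56) for Pdr1 and of 12.6 (rank 1 of 7) for Pdr3. The PDR3 summits also lay upstream of SLA1 and LDB7 and were nearer to the start of LDB7 (136 and 107 bp for Pdr1) than to that of PDR3 (205 and 234 bp). YAP1 had weak Pdr1 peaks of 4.10-fold (rank 536) and 2.78-fold (rank 470), which it shared with ERG6 and MIN4, and MIN4 was the nearest of the 3. PDR1 had peaks near the foot of both lists by fold, of 2.60-fold and 1.96-fold in replicate 1 and 2.52-fold in replicate 2. By −log10 q the replicate 2 peak stood higher, at rank 305 of 485 with a value of 12.4. The summit of the 2.60-fold peak lay inside ERG4, the divergent neighbour, and the other summits were nearer to the start of ERG4 (194 and 227 bp) than to that of PDR1 (363 and 330 bp). HSF1 had none. By fold enrichment RPN4 stood below PDR3 in each Pdr1 list, with a small gap in replicate 2 (6.71 and 6.99). By −log10 q RPN4 and PDR3 had 105 and 108 in replicate 1 (ranks 27 and 26), and in replicate 2 RPN4 stood above PDR3, with 52.3 and 24.4 (ranks 18 and 96). RPN4 was above YAP1 and PDR1 by both measures in both lists.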

How the data were processed

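Peak lists of 3 anti-c-Myc CUT&RUN libraries were used, 1 per library. Per the submitters' processing notes, Trimmomatic 0.33, Bowtie2, Picard, deepTools and MACS2 2.1.1 were used, with builds R64 and sacCer3. The settings of the peak caller, and whether IgG or spike-in reads entered it, are not stated. The deposited lists have no header, so their columns were read in narrowPeak order. The deposited fold enrichment is a ratio used to rank peaks within a list, all listed peaks were kept, the deposited −log10 q-value gave a second ranking and a stricter alternative filter, and the deposited score and −log10 p-value were not used. Gene models came from RefSeq R64, with strands read from systematic names. Coordinates count from 1. Depth is unknown, and no p-value was computed, because the lists give no test over samples.

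Members and lists of related genes were chosen with earlier results of these data known, and RPN4 was already known to have a peak. Genes named are the members, the genes sharing their summits, the neighbours of RPN4 in rank, and related genes with a summit. The single values of PUP2 and PRE6, and the genes ENO1, RPS15, RPP2A, OSH2, HSF1, KES1, SLA1, LDB7, ERG4, ERG6 and MIN4, which the rule does not name, were added after the values were seen. Alternatives were a −log10 q of at least 10, 500 bp windows, windows ending at the next gene, any base of a peak, summits within 100 bp, equal numbers of peaks, ranks by −log10 q and each replicate alone. The split by upstream space was added after the data were examined. The window rule was tested on simulated summits. Planned motif counts were not run, because no sequence was used here. Python 3.11.15 and pandas 2.3.3 were used.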

Additional observations from a re-analysis of the deposited data

How the results depend on the processing

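Of 68 recomputed values, 59 differed from the reported one by at most a factor of 1.5 (counts) or by less than the SD between replicates (ranks), and 9 differed by more. Some could not have differed by more. With 2 replicates, a rank with 1 left out always lies within the SD of their mean. A count of 0 could not change under a stricter filter or a shorter window. Counts over members with at least 600 bp upstream were set against those over all 33 members. The 59 is therefore no measure of how firm the results are. With 500 bp upstream, the members with a summit fell to 1 in both replicates and to 1 in replicate 1, the core genes to 0, and PRE7 to 0 lists, since its summits are over 500 bp away; the share of other genes fell too, to 5.29% in both replicates (8.96% with 1000 bp) and to 10.8% in replicate 1 (15.6%). With any base of the peak, core genes with a peak in both replicates numbered 2 (other genes 9.83%). Leaving out a Pdr1 replicate gave 2 to 4 members, 0 to 1 base, 0 lid and 1 to 2 core genes; the upper values are replicate 2 alone, which lists RPT2 and PUP1 (other genes 10.2%), and the lower ones replicate 1 alone (other genes 15.6%). Ranked by −log10 q, the PRE7 peak moved to a mean of 18.2% of the lists from the top, against 14.0% by fold, and the cause was not tested. RPN4 kept a summit in both replicates in each of the 5 settings of filter or window. This followed from the distance, −log10 q and rank of its peaks given above, so none of these settings could have removed it. The mean place of RPN4 was 3.56% by −log10 q, 9.05% by fold, and 4.29 to 13.8% with 1 replicate left out. No paired analysis was possible because no test over samples exists for these lists, and the IgG libraries with the same replicate numbers were not analysed here. Motif alternatives were not run. Unknown depth limits every statement on a missing peak.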
